A study of Mus musculus with 56 samples.

Results

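The genes described here were the ligands and receptors of the platelet-derived growth factor (PDGF) family: the receptors Pdgfra and Pdgfrb and the ligands Pdgfa, Pdgfb and Pdgfc. They were chosen as every probe on the array whose annotated symbol was one of these names, which gave 6 probes of 21766 for 5 genes of 15063. Pdgfra had 2 probes and the other genes had 1 each. RNA came from 2 mouse cell lines, an ovary epithelial line (OV) and 3T3 fibroblasts (3T3), and targets of both lines were hybridized together on 2-color long-oligonucleotide arrays. The amplified targets were made by PCR after poly(A) tailing of the first strand (global amplification, GA), by PCR after template switching (SMART), by a modified template-switching protocol (SM37) or by repeated rounds of T7 RNA polymerase transcription (IVTIII), each from 10 ng of total RNA, and by GA and SMART also from 10 pg. These amounts are those put into the first reaction. By the study's methods, only part of the product from inputs above 10 pg was carried on. For the PCR methods this brought it to about the content of a single cell. The inputs thus differ in the RNA at the start and not in the amount meant to be carried into the last PCR. Unamplified cDNA was made from 100 μg of total RNA. Each of these 7 comparisons of OV with 3T3 had 4 arrays in both dye orientations. Further arrays set parallel amplifications of OV RNA against each other (replica arrays, at 10 pg, 100 pg, 1 ng and 10 ng for GA and SMART) or OV target against itself (self-self arrays). Others compared parallel amplifications of parts of a single RNA pool. By the study's methods that RNA came from a group of neural stem cells of embryonic mouse neocortex. Both lines were used without treatment, as far as the labels say, and each was one line, so nothing below speaks for ovary epithelium or fibroblasts in the animal.

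PDGF ligands are secreted dimers of A, B, C or D chains. They bind 2 receptor tyrosine kinases, PDGFRα and PDGFRβ, which pair on binding and signal through phosphatidylinositol 3-kinase, phospholipase Cγ, Src family kinases and the Ras pathway. The A chain acts through PDGFRα, the B chain through both receptors, and the C chain, which must be cut before it is active, mainly through PDGFRα. Fibroblasts, pericytes and smooth muscle cells are the classical responders, and epithelial cells are often a source of the A chain.

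Promoter sequence of Pdgfa is shown because its ratio lay below 0 on more arrays than that of any other member. RefSeq places the gene on chromosome 5 of GRCm38.p6, at 138976014 to 139000792 on the minus strand. The RefSeq promoter table held 2 windows for it, both inside this span and neither at its 5′ end. The 250 bases before the start site of each window are printed 5′ to 3′ with every GC box (GGGCGG on either strand) in capitals.
Pdgfa, chr5:138994282-138994531, minus strand: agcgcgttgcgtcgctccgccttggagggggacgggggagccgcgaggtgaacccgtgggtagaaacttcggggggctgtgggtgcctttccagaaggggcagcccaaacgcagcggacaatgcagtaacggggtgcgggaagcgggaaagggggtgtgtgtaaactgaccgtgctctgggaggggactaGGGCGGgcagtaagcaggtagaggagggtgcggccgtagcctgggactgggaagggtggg
Pdgfa, chr5:138994945-138995194, minus strand: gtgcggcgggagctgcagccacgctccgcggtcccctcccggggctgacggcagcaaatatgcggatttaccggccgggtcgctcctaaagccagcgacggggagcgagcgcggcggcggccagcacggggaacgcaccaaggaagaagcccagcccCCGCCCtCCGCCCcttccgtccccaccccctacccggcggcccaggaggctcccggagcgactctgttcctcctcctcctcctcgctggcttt
The first window held 1 GC box with a GC content of 66.4%, and the second held 2 with a GC content of 72.4%. Of 32851 windows of this length in the same set, 32.7% held at least 1 GC box, and the median GC content was 52.4%. A match to these letters is a description of the sequence and not a binding site.

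Values are log2 ratios of OV over 3T3 after turning every array by its dye labels, so that a ratio below 0 means less signal from OV. The study's text gives the dye ratio both ways, so the direction is not settled by it, and Cy5 over Cy3 was taken as likely on the basis of 2 genes. Cdkn2a, a tumor suppressor gene that lines of the 3T3 type have often lost, was above 0 on all 4 unamplified arrays, at 1.73, 1.47, 1.53 and 1.60. Xist, the RNA that coats the inactive X chromosome, was at 4.69, 3.58, 1.57 and 3.00 on the same arrays. Outside GA from 10 pg, Cdkn2a was above 0 on 11 of 11 arrays with a value and Xist on 22 of 22. On the arrays labelled GA from 10 pg the check failed: Cdkn2a was at −0.08, −0.41 and −0.25 on arrays 2 to 4, and Xist at 0.46, −0.21, −0.35 and −0.29. Across genes, the ratios of those 4 arrays also did not follow the mean of unamplified cDNA, with r of 0.00, 0.00, −0.13 and −0.15, where the 20 arrays of the other amplified sets had r of 0.38 to 0.69. The direction of the ratios labelled GA from 10 pg is therefore not borne out by the data, and its main values below are given with the sign turned too, an alternative chosen after seeing the data. Turning the sign would not bring those r to the range of the other amplified sets. Neither sign is thus borne out across genes. Once turned by the labels, the 4 arrays of a comparison correlated over genes at 0.802 to 0.891 for IVTIII and 0.784 to 0.892 for unamplified cDNA, and at 0.462 to 0.856 for GA from 10 pg. SMART array 1 stood apart, with a correlation of −0.069 with array 4 of that method, so the SMART results are given without it too. Between 1989 and 13594 genes had a ratio per array, and files held ratios only, so depth and signal over background are unknown and the reason for a missing ratio was not given.

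The PDGF genes were measured unevenly. Pdgfa had a ratio on 24 of the 28 arrays that compared the lines and Pdgfb on 23. Pdgfra had one on 17, and Pdgfrb and Pdgfc on 15 each, against a median of 17 over all genes. Neither receptor had a ratio on any IVTIII array or on any array of SMART from 10 pg, and Pdgfc had none with SM37. Unamplified cDNA gave a ratio for all 5 genes on at least 3 of 4 arrays.

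**Figure D1:**
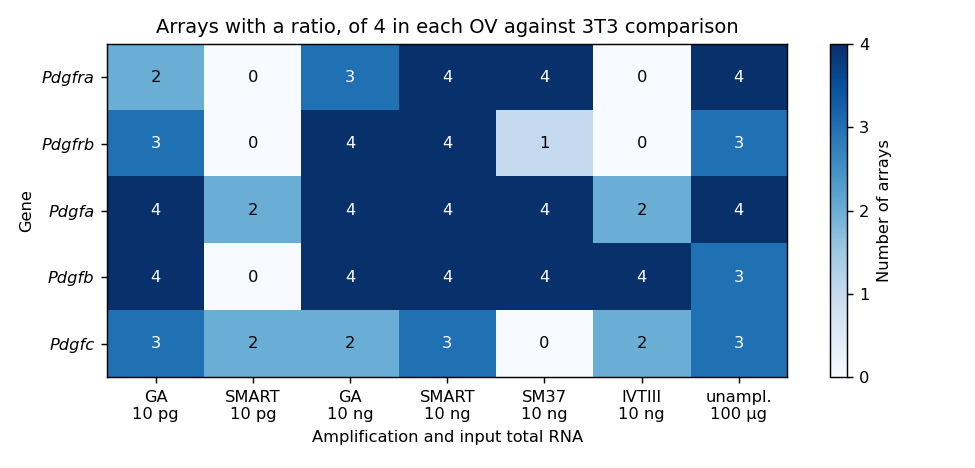
Number of arrays with a ratio, of 4, for each PDGF gene (rows) in each comparison of OV with 3T3 (columns, amplified targets left of unamplified cDNA). Pdgfa and Pdgfb were the members seen most often, on 24 and 23 arrays, and both receptors were missing with IVTIII and with SMART from 10 pg.

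A gene was called different when its log odds of a difference (LOD, from the empirical Bayes model of limma with a prior share of 0.01) exceeded 0. The study also set its LOD threshold at 0, and gave a P value of 0.01 with it. Here 0.01 was the prior share, probes were averaged by gene and a ratio was required on all 4 arrays. The counts are therefore not those of the study. The 4 arrays of a comparison came from the same RNA pools, and by the study's account from 2 independent replicates of each line with dye swaps, so p-values measure the spread between amplifications and hybridizations and not between cultures. The main fits count the 4 arrays as separate, and where fits with dye-swap pairs as a random block ended a call this is said. The pairs were assumed to be arrays 1 and 2 and arrays 3 and 4, since the sample titles do not name them. Correlation within these pairs was 0.45 for GA from 10 pg, 0.33 for GA, 0.17 for SM37 and 0.08 for IVTIII. It was below 0 for SMART (−0.10), SMART from 10 pg (−0.27) and unamplified cDNA (−0.21), where the block gave more calls over all genes. Of the 5 members, 2 calls were made in all: Pdgfa with SM37 and Pdgfb with GA from 10 pg. Among all genes with a ratio on every array, the share called was 5.45% for GA from 10 pg, 8.23% for GA, 3.54% for SMART, 13.0% for SM37, 22.0% for IVTIII and 16.1% for unamplified cDNA. At an adjusted p under 0.05 in place of the LOD, the shares were 17.1% for GA from 10 pg, 27.9% for GA, 7.06% for SMART, 43.0% for SM37, 55.9% for IVTIII and 48.8% for unamplified cDNA. With 1 member called of 3 tested with SM37 and 1 of 2 tested with GA from 10 pg, these counts are too small to set against those shares.

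Pdgfa, the A chain, was below 0 on 23 of the 24 arrays, and on 19 of 20 outside GA from 10 pg. In unamplified cDNA its ratios were −0.38, −0.26, −0.54 and −0.47, a mean of −0.41 ± 0.12 (SD, n = 4), or 1.33-fold less in OV. All 4 arrays lay below 0. Its limma adjusted p was 0.0041, but its LOD of −0.75 left it short of a call. Of 10185 genes, 13.9% had a lower mean ratio.

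With SM37 the ratios of Pdgfa were −0.65, −0.51, −0.65 and −0.67, a mean of −0.62 ± 0.07 (SD, n = 4). That corresponds to 1.54-fold less signal from OV, and the 4 arrays spanned less than those of any other method at 10 ng that measured the gene on all 4 arrays. The gene was called (LOD 1.91, limma adjusted p = 0.0013), and 10.3% of 5779 genes had a lower mean. Without array 1 or array 4 the LOD fell below 0 while the mean stayed at −0.61 in both cases.

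GA from 10 ng gave Pdgfa ratios of −0.16, −0.58, −0.41 and −0.27, with a mean of −0.36 ± 0.18 (SD, n = 4). All were below 0 but did not pass the test (limma adjusted p = 0.058). SMART gave 0.14, −0.36, −0.29 and −0.53, where the single value above 0 came from array 1. Its mean was −0.26 ± 0.28 with all 4 arrays (limma adjusted p = 0.22) and −0.39 without array 1 (limma adjusted p = 0.028), with no LOD above 0 in either case. IVTIII measured the gene on 2 arrays, at −0.10 and −0.18, and SMART from 10 pg on 2 arrays, at −0.42 and −0.37.

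GA from 10 pg spread the Pdgfa ratios widely, at −3.66, −0.96, −1.66 and −1.16. The first of these lay far below the rest, and it was the only one past 2 SD of all genes on its own array. The mean was −1.86 ± 1.24 (SD, n = 4), with a limma adjusted p of 0.046 and an LOD of −2.58. Without array 1 the mean was −1.26 (limma adjusted p = 0.049), and with dye-swap pairs as a random block the limma adjusted p was 0.16. With the sign of the set turned the mean would be 1.86, higher in OV.

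**Figure D2:**
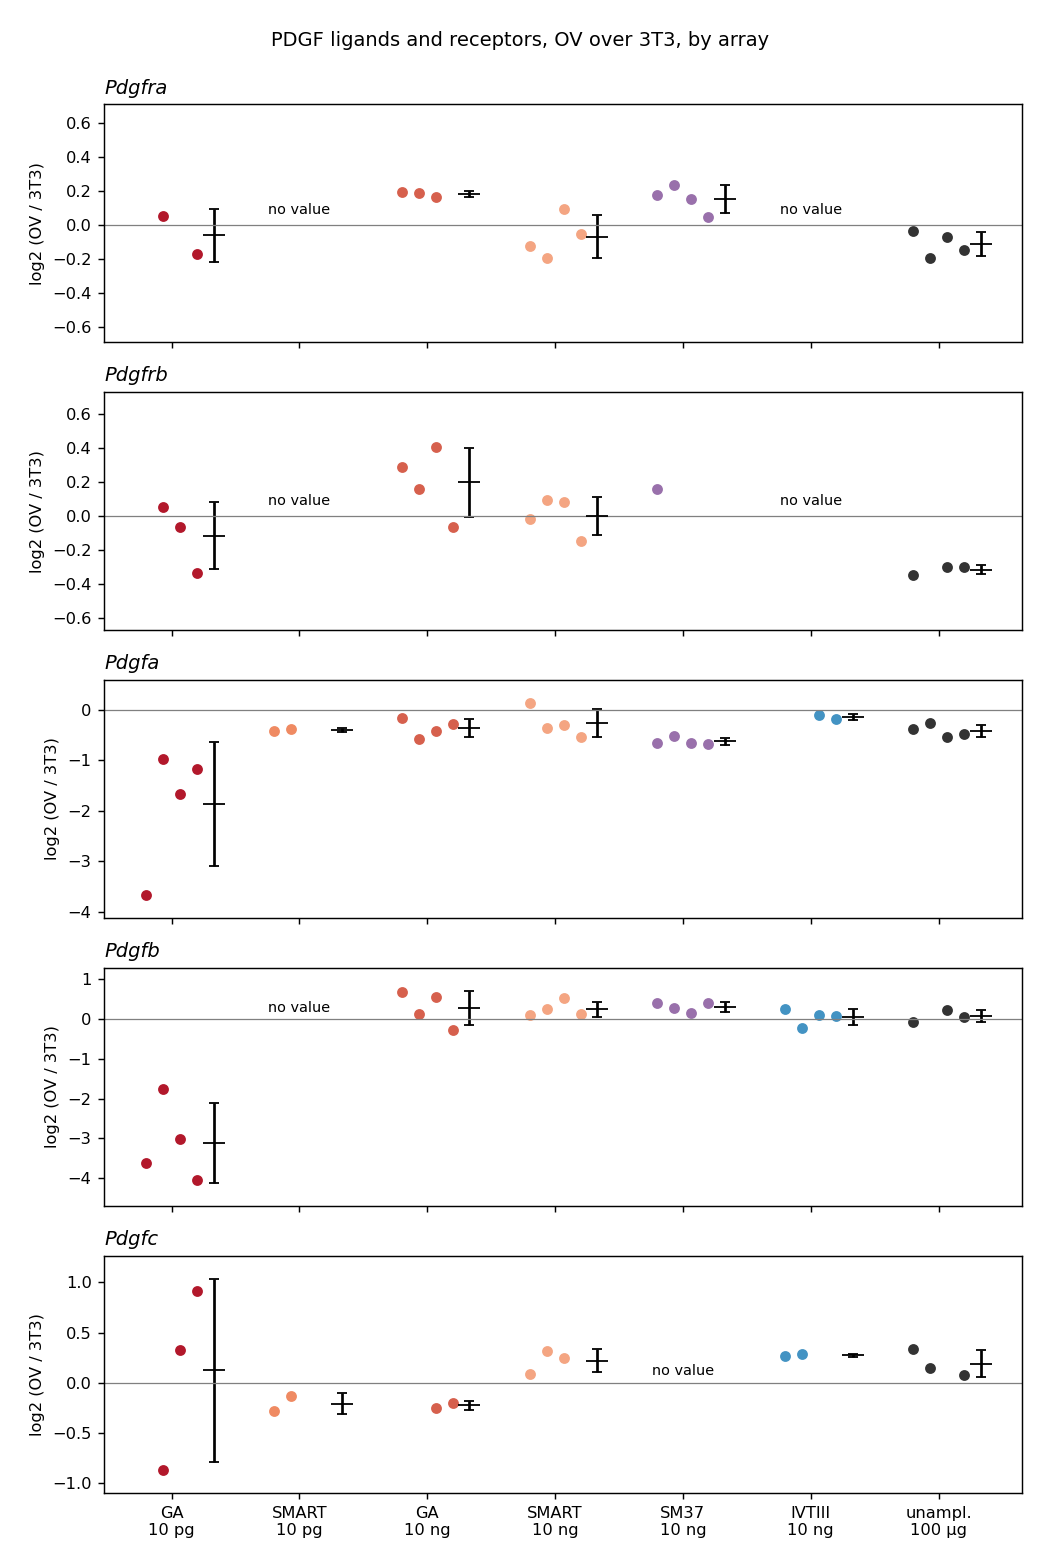
Log2 ratio of OV over 3T3 for each PDGF gene on each array (points), with the mean and SD over the arrays that had a value (bars), amplified targets left of unamplified cDNA; each panel has its own vertical scale. Pdgfa lay below 0 in every comparison except for 1 SMART array, and Pdgfb lay between −4.06 and −1.76 on the arrays labelled GA from 10 pg, a set whose direction the check genes did not bear out, against −0.07 to 0.23 in unamplified cDNA.

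Pdgfb, the B chain, was the member farthest from 0. On the arrays labelled GA from 10 pg its ratios were −3.62, −1.76, −3.01 and −4.06, a mean of −3.11 ± 1.00 (SD, n = 4) that corresponds to 8.65-fold less signal from OV. Only 15 of 4426 genes had a lower mean ratio, and the gene was past 2 SD of all genes on each of the 4 arrays. It was called (LOD 1.26, limma adjusted p = 0.0081). Leaving out array 1, 3 or 4 took the LOD below 0, with means of −2.94, −3.14 and −2.80 and limma adjusted p of 0.039, 0.061 and 0.059. Treating the dye-swap pairs as a random block also ended the call (limma adjusted p = 0.034). In this set Cdkn2a was below 0 on 3 of 3 arrays and Xist on 3 of 4. With the sign of the set turned, Pdgfb would be at 3.11, or 8.65-fold more signal from OV, and 15 genes would have a higher mean. The size of the ratio thus does not depend on the direction, but which line had more signal does. Neither sign made the ratios of this set follow unamplified cDNA across genes, with r of −0.06 for the set mean as labelled. Neither −3.11 nor 3.11 can thus be taken as the ratio of the lines.

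In every other comparison that measured it, Pdgfb lay near or above 0. GA from 10 ng gave 0.69, 0.14, 0.55 and −0.26, a mean of 0.28 ± 0.43 (SD, n = 4). SMART gave 0.11, 0.25, 0.52 and 0.13, all above 0, with a mean of 0.25 ± 0.19 (limma adjusted p = 0.16) and of 0.30 without array 1 (limma adjusted p = 0.099). SM37 gave 0.42, 0.28, 0.15 and 0.40, with a mean of 0.31 ± 0.12. That SM37 mean passed an adjusted p of 0.05 (limma adjusted p = 0.024) but not the LOD, at −2.98. IVTIII gave 0.26, −0.21, 0.10 and 0.08, and unamplified cDNA −0.07, 0.23 and 0.05 on arrays 1, 3 and 4. Both sets straddled 0, with means of 0.06 ± 0.20 for IVTIII (SD, n = 4) and 0.07 ± 0.15 for unamplified cDNA (SD, n = 3).

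The 2 ligands can be set against each other on the same array, which leaves the hybridization out. Pdgfb minus Pdgfa was between 0.80 and 1.07 on the 4 SM37 arrays, with a mean of 0.93 ± 0.15. GA from 10 ng gave 0.01 to 0.96, with a mean of 0.64 ± 0.43. SMART gave −0.02 on array 1 and 0.60, 0.81 and 0.66 on the others, with a mean of 0.51 ± 0.37. IVTIII gave 0.20 and 0.26 on the 2 arrays with both genes. In unamplified cDNA the difference was 0.54 ± 0.23 on 3 arrays. With GA from 10 pg it was 0.05, −0.80, −1.35 and −2.89, so that Pdgfb was the lower of the pair on 3 of 4 arrays. These 4 signs turn with that of the set.

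The size of the GA 10 pg ratio can be read beside replica arrays, where both targets were OV RNA. On the GA 10 pg replica arrays Pdgfb was at −1.17 and −0.95, when 2 SD of all genes was 1.54 and 1.05 on those arrays. The 4 ratios of OV over 3T3 at that amount, −4.06 to −1.76, were each farther from 0 than the 2 replica values, whichever sign is taken. On those 4 arrays 2 SD of all genes was 2.28, 1.01, 1.93 and 1.90. How many genes lay farther from 0 than on the replica arrays was not counted. Pdgfb was at −0.64 and −0.50 on the 100 pg replica arrays, at −0.16 on the single 1 ng array with a value, and at 0.00 and −0.08 at 10 ng. Each pair of replica arrays kept one sign after turning at 10 pg and 100 pg, so the 2 amplification products differed on both dye orientations. Pdgfa on the same GA arrays was at 1.25 and 0.65 at 10 pg and at −1.07 and −0.59 at 100 pg. It was at −0.24 and −0.21 at 1 ng, and at −0.22 and 0.09 at 10 ng. The sign of Pdgfa thus differed between the 10 pg and 100 pg pairs, and the −1.07 was past 2 SD of its array, at 0.71.

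Pdgfra was the member that moved most on the SMART replica arrays. Its ratios were 0.73 and 0.56 at 10 pg, 0.47 and 0.42 at 100 pg, −0.06 and 0.08 at 1 ng, and 0.37 and 0.28 at 10 ng. Only the second 100 pg value passed 2 SD of its array, at 0.40. The 10 pg, 100 pg and 10 ng values came from probe 1 alone, and both probes had a value at 1 ng. Pdgfa stayed between −0.18 and 0.09 over the same 8 SMART arrays.

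**Figure D3:**
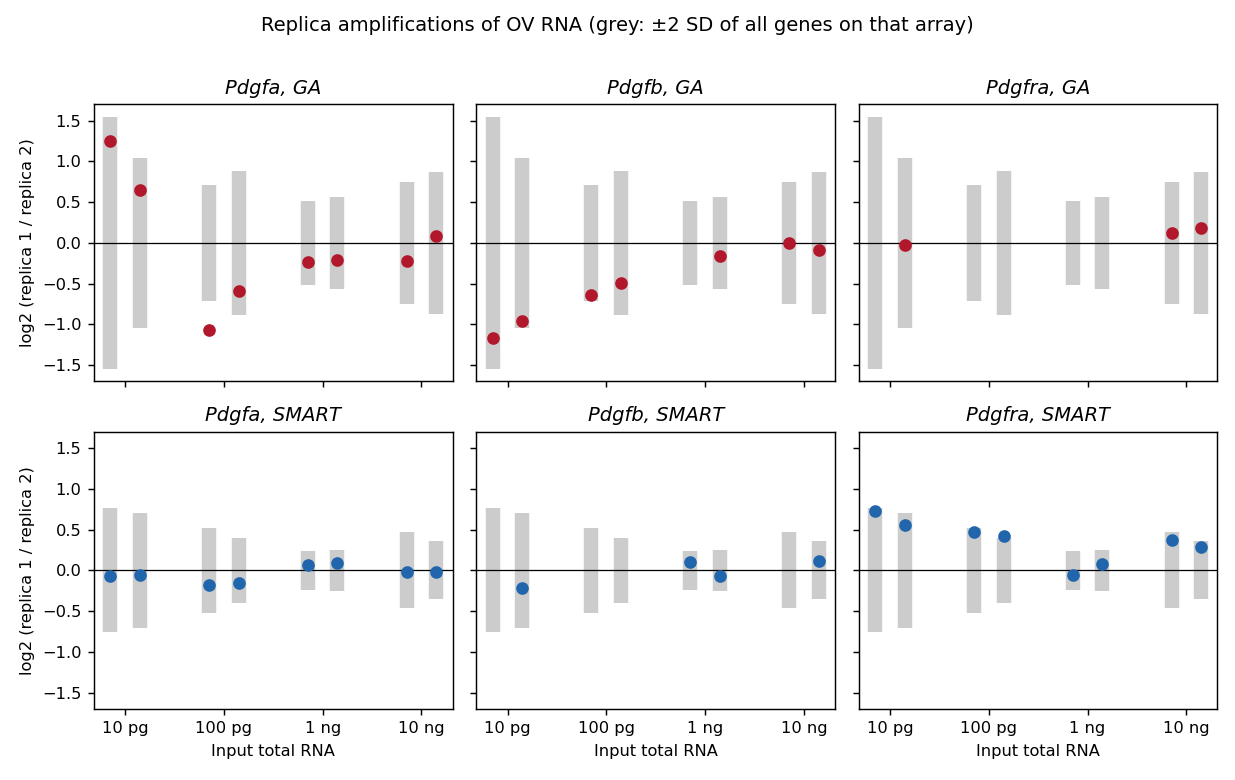
Log2 ratio of replica 1 over replica 2 of OV RNA for Pdgfa, Pdgfb and Pdgfra (columns) on each array of GA and SMART (rows) at increasing input total RNA, with 2 SD of all genes on either side of 0 on that array in grey. Pdgfb moved away from 0 towards lower GA inputs, to −1.17 and −0.95 at 10 pg, while Pdgfra was above 0 in SMART at 10 pg, 100 pg and 10 ng.

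Over all OV replica arrays, 2 of 73 member values were past 2 SD of their array, against 3.45 to 7.17% of all genes per array. None of 10 values on self-self arrays was. Among neural stem cell replicas 1 of 15 was, Pdgfrb with SMART at 0.54 on array 1 and −0.15 on array 2, which did not keep its sign. On the arrays comparing the lines 5 of 94 member values were past 2 SD, 4 of Pdgfb and 1 of Pdgfa, all with GA from 10 pg. Of all genes, 5.59 to 9.10% were past 2 SD per array in that set and 4.17 to 9.10% over the 28 arrays. The total over the 28 arrays is near the share of all genes, but it is not spread over the sets. In the GA 10 pg set the members had few values: 2 for Pdgfra, 3 for Pdgfrb, 4 for Pdgfa, 4 for Pdgfb and 3 for Pdgfc.

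Pdgfra, the receptor for the A and C chains, showed ratios close to 0. In unamplified cDNA they were −0.04, −0.20, −0.07 and −0.15, a mean of −0.11 ± 0.07 (SD, n = 4, limma adjusted p = 0.17). All 4 lay below 0 without passing the test. SM37 gave 0.18, 0.24, 0.15 and 0.05, all above 0, with a mean of 0.15 ± 0.08 (SD, n = 4, limma adjusted p = 0.17). GA gave 0.20, 0.19 and 0.16 on arrays 1 to 3. SMART gave −0.12, −0.19, 0.10 and −0.05, on both sides of 0, with a mean of −0.05 without array 1. GA from 10 pg gave 0.05 and −0.17 on 2 arrays.

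The 2 Pdgfra probes did not give the same ratio on an array. Of 22 arrays with both, probe 2 was higher on 14, by a median of 0.08, and the probes lay from −0.76 to 0.51 apart. On GA array 2 probe 1 was at 0.51 and probe 2 at −0.13, and on the second GA replica array at 10 ng they were at 0.56 and −0.20. On the SM37 arrays with both, probe 2 was at 0.35, 0.29 and 0.16 and probe 1 at 0.01, 0.02 and −0.07, so the SM37 mean above 0 came from probe 2. In unamplified cDNA probe 1 was below 0 on all 4 arrays, at −0.17, −0.23, −0.14 and −0.09, and probe 2 on 2 of them, at 0.10, −0.16, 0.00 and −0.20. A mean over both probes changes with which of them had a value, as on SMART arrays 2 to 4, which had probe 1 only.

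**Figure D4:**
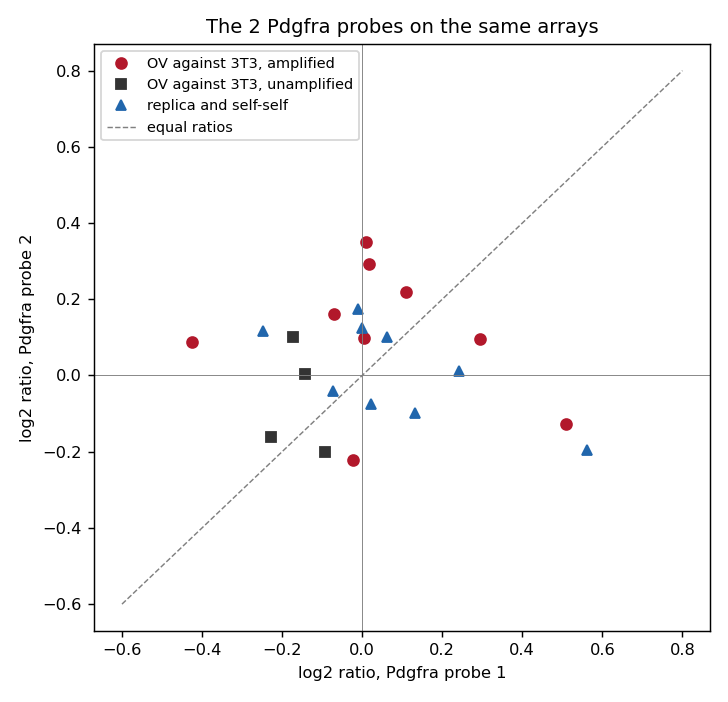
Log2 ratio of Pdgfra probe 2 against probe 1 on the 22 arrays where both had a value, by kind of array, with the dashed line marking equal ratios. The points lie up to 0.76 from the line and the 4 unamplified arrays all lie left of 0 on the probe 1 axis.

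Pdgfrb, the receptor that also takes the B chain, gave −0.35, −0.30 and −0.30 in unamplified cDNA on arrays 1, 3 and 4, a mean of −0.31 ± 0.03 (SD, n = 3). All 3 lay below 0. GA gave 0.29, 0.16, 0.41 and −0.07, a mean of 0.20 ± 0.20 (SD, n = 4, limma adjusted p = 0.24). SMART gave −0.02, 0.10, 0.08 and −0.15, with a mean of 0.00, and of 0.01 without array 1. GA from 10 pg gave 0.05, −0.06 and −0.33, and SM37 only 0.16 on array 1. The GA ratios lay above all 3 unamplified ratios, and how many genes had ratios without overlap was not counted.

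Within an array, Pdgfra minus Pdgfrb was 0.31, 0.23 and 0.15 in unamplified cDNA, a mean of 0.23 ± 0.08 (SD, n = 3), so the ratio of the β receptor was the lower one on each. It was −0.10 ± 0.14 with GA (n = 3) and −0.07 ± 0.17 with SMART (n = 4), or −0.06 without array 1, where arrays fell on both sides of 0. An exact sign-flip test of 3 or 4 arrays cannot reach a p of 0.05, so none is given.

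Pdgfc, the C chain, had few values. In unamplified cDNA it was at 0.34, 0.15 and 0.08, all above 0, and with SMART at 0.09, 0.32 and 0.25. IVTIII gave 0.26 and 0.29 on 2 arrays, and GA −0.26 and −0.20. SMART from 10 pg gave −0.28 and −0.14. GA from 10 pg gave −0.87, 0.32 and 0.92, spanning 0. With genes measured on 2 or more arrays in the fit, no further member was called in any comparison. The share of all genes called was then 2.72% for GA from 10 pg, 3.80% for SMART from 10 pg, 5.85% for GA, 2.61% for SMART, 10.2% for SM37, 16.7% for IVTIII and 13.7% for unamplified cDNA.

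The ratios of each amplified set were compared with those of the unamplified arrays, which all these comparisons share. With values required on all 8 arrays, 1 member could be tested for GA and for GA from 10 pg, 2 for SMART and for SM37 and none for IVTIII or SMART from 10 pg, and none differed: Pdgfa by 0.06 with GA (SE 0.13, limma adjusted p = 0.78), by 0.15 with SMART (SE 0.14, limma adjusted p = 0.53; 0.02 without array 1, limma adjusted p = 0.93), by −0.21 with SM37 (SE 0.11, limma adjusted p = 0.14) and by −1.45 with GA from 10 pg (SE 0.52, limma adjusted p = 0.057). With the sign of GA from 10 pg turned, its Pdgfa difference would be 2.28 (limma adjusted p = 0.011). Pdgfra differed by 0.27 with SM37 (SE 0.10, limma adjusted p = 0.055) and by 0.04 with SMART (SE 0.10, limma adjusted p = 0.82; 0.06 without array 1, limma adjusted p = 0.76). These Pdgfra differences rest on unlike mixes of its 2 probes. The unamplified arrays had both probes, SMART arrays 2 to 4 had probe 1 only and SM37 array 2 had probe 2 only. The share of all genes that differed was 21.4% for GA, 18.0% for SMART, 37.9% for SM37 and 35.9% for GA from 10 pg.

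With values required on 3 or more arrays of each set, 2 differences passed the test. Pdgfb was lower with GA from 10 pg, at −3.11, against 0.07 in unamplified cDNA, a difference of −3.18 (SE 0.49, limma adjusted p = 0.0032). With dye-swap pairs as a random block the limma adjusted p was 0.013, and with the sign of the GA 10 pg set turned the difference would be 3.04 (limma adjusted p = 0.0044). Pdgfrb was higher with GA from 10 ng, at 0.20, against −0.31 in unamplified cDNA, a difference of 0.51 (SE 0.14, limma adjusted p = 0.034). That call was lost with dye-swap pairs as a random block (limma adjusted p = 0.069), an alternative added after seeing the data. The share of all genes that differed was 31.5% for GA from 10 pg and 19.2% for GA in these fits. Pdgfrb with SMART differed by 0.32 (SE 0.11, limma adjusted p = 0.079), and Pdgfra with GA by 0.29 (SE 0.11, limma adjusted p = 0.099). Pdgfb differed by 0.24 with SM37 (SE 0.13, limma adjusted p = 0.16) and by −0.01 with IVTIII (SE 0.14, limma adjusted p = 0.95), the only member IVTIII allowed. The shares of all genes in those fits were 15.7% for SMART, 34.2% for SM37 and 44.6% for IVTIII.

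The GA arrays labelled 10 pg and 10 ng, separate sets of arrays, were then compared. These labels give the RNA put into reverse transcription, since the study diluted the product from 10 ng before the last PCR. Of Pdgfa and Pdgfb, the members with values on all 8 arrays, Pdgfb differed. Its ratio was −3.11 from 10 pg, against 0.28 from 10 ng, a difference of −3.39 (SE 0.46, limma adjusted p = 9.18e-04). No array of the 10 pg set reached any of the 10 ng set, and how many genes had arrays without overlap was not counted. With dye-swap pairs as a random block the limma adjusted p was 0.015, and with the sign of the 10 pg set turned the difference would be 2.83 (limma adjusted p = 0.0022). Pdgfa was at −1.86 from 10 pg, against −0.36 from 10 ng, a difference of −1.51 (SE 0.52, limma adjusted p = 0.054). Leaving out 10 pg array 1 brought it to −0.91 with a limma adjusted p of 0.022, the random block gave a limma adjusted p of 0.24, and with the sign turned it would be 2.22 (limma adjusted p = 0.013). Over all genes 28.7% differed between these 2 inputs. Over the 4426 genes on all GA 10 pg arrays the median ratio was −0.10 and that of Pdgfb −3.11. No member had values on enough arrays to compare SMART from 10 pg with SMART from 10 ng.

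The genes that handle PDGF ligands outside the cell were called in one direction only in unamplified cDNA, higher in OV. Of 15 listed genes 10 were tested, 4 were called higher and none lower. The list median was 0.47, against 0.00 over all genes, and the share of all genes called was 8.81% higher and 7.30% lower. Thbs1, a matrix protein that binds growth factors, was at 2.89, and Sparc, which binds PDGF B and AB, was at 1.14. Pcsk6, a proprotein convertase, was at 1.05, and Nrp1, a co-receptor, was at 0.77. These 4 were limma calls with adjusted p of 7.22e-05, 2.71e-04, 0.0024 and 0.0013. In the amplified sets 1 of 5 was called with GA from 10 pg, 0 of 6 with GA and 1 of 8 with SMART. It was 0 of 5 with SM37, 1 of 3 with SMART from 10 pg and 1 of 5 with IVTIII, all higher. Calls over all genes were 5.45% for GA from 10 pg, 8.23% for GA, 3.54% for SMART, 13.0% for SM37 and 22.0% for IVTIII. For SMART from 10 pg it was 104 of 1159 genes. Thbs1 was at 0.36 with GA, 0.88 with SMART and 0.38 with SM37. Sparc lay from −0.77 with GA from 10 pg to 0.68 with SMART from 10 pg.

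Inside the cell, of 36 listed adaptors and enzymes of the receptors 24 were tested in unamplified cDNA, 3 were called higher and 2 lower, and the median was −0.15. Stat3, a transcription factor activated by cytokine and growth factor receptors, was at 1.64, and Shc1, an adaptor to Ras, at 1.28. Fyn, a Src family kinase, was at −1.36 and the docking protein Gab1 at −0.55. Pik3r2, a regulatory subunit of phosphatidylinositol 3-kinase and the fifth call of the list, was at 0.47. In the amplified sets, 0 of 11 were called with GA from 10 pg, 0 of 19 with GA, 0 of 21 with SMART, 1 of 21 with SM37, 1 of 2 with SMART from 10 pg and 4 of 15 with IVTIII, all lower. The shares of all genes with IVTIII were 11.6% called higher and 10.4% called lower. In unamplified cDNA they were 8.81% higher and 7.30% lower. The shares called were 5.45% for GA from 10 pg, 8.23% for GA, 3.54% for SMART and 13.0% for SM37. With SMART from 10 pg 104 of 1159 genes were called.

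Early and feedback genes that PDGF is known to induce went both ways, with 5 of 22 called higher and 6 lower in unamplified cDNA and a median of −0.02. Of all genes 8.81% were called higher and 7.30% lower there. Ccl2, a chemokine, was at 1.75 and Junb, an AP-1 subunit, at 1.59. Myc was at −0.93 and Jun at −0.92, both immediate early transcription factors. Many other signals induce these genes. Among related receptors and ligands 1 of 12 was called higher and 2 lower: Vegfc at 0.44, Vegfd at −0.61 and Kitl, the ligand of Kit, at −2.46.

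The labels of both lines were set against markers in unamplified cDNA, where 8.81% of all genes were called higher and 7.30% lower. Of 15 tested epithelial and mesothelial markers 9 were called higher in OV and 1, Krt18 at −0.75, lower. Upk1b was at 4.26, Wt1 at 3.65, Krt8 at 3.44 and Gata6 at 3.29. Of 11 tested fibroblast markers 3 were called higher in OV and 4 lower. Prrx1, a mesenchymal transcription factor, was at −3.33, but the collagen genes Col3a1 at 2.15 and Col1a1 at 1.47, and Pdpn at 1.44, were higher in OV. Tagln at 2.28 and Acta2 at 1.19, both contractile genes, were the 2 called of 7 tested pericyte and smooth muscle markers. None of 6 endothelial markers was called, with Tie1 at −0.82 and Cldn5 at 0.32 the farthest from 0. Of 6 leukocyte markers Cd14 at 1.26 and Cd79a at 0.53 were called. On the arrays labelled GA from 10 pg, 0 of 10 tested epithelial and mesothelial markers were called, with a median of −0.07, against −0.10 over all genes. Krt8 was at 1.77 there, Wt1 at 0.82, Upk1b at −0.28 and Krt7 at −0.69. Of 8 tested fibroblast markers in that set 1 was called, Lox, at 2.18. The share of all genes called in that set was 5.45%. Ratios do not say whether a gene was present in both lines, and the part of other cell types in any PDGF ratio was not tested.

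The genes most like Pdgfa over the arrays comparing the lines were Nbdy (r = 0.94 over 22 arrays), S100a13 (r = 0.94 over 21) and Il6st (r = 0.94 over 22). Those most like Pdgfb were Apcdd1 (r = 0.98 over 21), Bfar (r = 0.96 over 22) and Ip6k2 (r = 0.96 over 23). Without the GA 10 pg arrays these fell to 0.47, 0.58 and 0.58 for Pdgfa and to 0.29, 0.32 and 0.03 for Pdgfb, so the likeness rested mainly on those 4 arrays. The other members had ratios on fewer than 20 arrays.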

How the data were processed

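Per the labels and the study's methods, the authors scanned 2-color long-oligonucleotide arrays, extracted spots with GenePix Pro, subtracted background and normalized within print tips by lowess in limma (version not given in the sources used here). The deposited values are log2 ratios of the dyes, 21997 probes on 56 arrays, with some missing. Of the probes, 231 controls were left out, 16632 had 1 gene symbol in the platform annotation, 139 had several and 4995 none. Ratios were turned by the dye labels to OV over 3T3 (replica 1 over replica 2 on replica arrays) and probes of a gene averaged, which gave 15063 genes. Input amounts follow the study's methods and titles where descriptions differ. The description of GA hybridization 2 speaks of replicas and a channel label of IVTIII hybridization 1 disagrees with its description, so dyes were taken from titles and channel labels for GA and from the description for IVTIII.

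Genes with a ratio on all 4 arrays of a comparison were fitted with limma 3.58.1 in R 4.3.3 (prior share 0.01) and called at an LOD above 0. Differences between sets of arrays were called at a Benjamini-Hochberg adjusted p under 0.05 over all genes tested, with the 8 arrays of both sets. Fits were run on simulated data with independent noise on each array. The run required only that mean estimates of added effects lay near their size. It did not model correlation within dye-swap pairs, so it is no check of the calls or p-values there. The members, gene lists and tests were chosen with earlier results of these data known. Named genes were all members, up to 4 called genes with the largest ratio in unamplified cDNA per list (the 2 largest where none was called), Cdkn2a and Xist, and the 3 genes with the highest r for members on at least 20 arrays. Pik3r2, Krt18, Krt7 and Lox were named after their values were seen. Alternatives were other minimum numbers of arrays, thresholds and priors, a dye term, scaling, centring, dye-swap pairs as a block, probes, robust variance and leaving out each array, and, added after the data were seen, the dye-swap block in the contrasts and the sign of GA from 10 pg turned. Protein and probe sequences were not used here.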

Additional observations from a re-analysis of the deposited data

Results flagged for a closer look

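Pdgfb stood out by a tested difference between 2 sets of GA arrays, labelled 10 pg and 10 ng. Its ratio was lower with GA from 10 pg than with GA from 10 ng by −3.39 on the log2 scale, and lower than in unamplified cDNA by −3.18, in the limma contrasts. Over all genes, 28.7% and 31.5% differed in these contrasts. The 4 arrays at 10 pg were all below every array of both other sets, or above them with the sign turned. How many genes had arrays without overlap was not counted. With dye-swap pairs as a random block both differences stayed past the threshold (limma adjusted p of 0.015 and 0.013). Cdkn2a and Xist did not bear out the direction of the 10 pg set, and with its sign turned the differences would be 2.83 and 3.04. Neither sign made that set follow unamplified cDNA across genes, with r of −0.06 for its mean as labelled.

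Pdgfrb was higher with GA from 10 ng than in unamplified cDNA by 0.51 on the log2 scale, in the limma contrast over genes with a ratio on 3 or more arrays of each set. Over all genes 19.2% differed in that contrast. The 4 GA arrays were all above the 3 unamplified arrays, and how many genes had arrays without overlap was not counted. With dye-swap pairs as a random block the limma adjusted p was 0.069.

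One array lay apart from the other 3 for Pdgfa with SM37, at −0.51, by Dixon's criterion, although all 4 lay below 0, between −0.67 and −0.51. It was the only such case in 15 sets of 4 arrays, and chance gives about 1 in 20.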

How the results depend on the processing

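The number of members called in OV against 3T3 was 0 in unamplified cDNA, and it was 1 (Pdgfa) at an adjusted p under 0.05, with arrays scaled, or with a prior share of 0.05. For SM37 it was 1, and it was 2 at an adjusted p under 0.05. For GA from 10 pg it was 1, with 2 at an adjusted p under 0.05 and 0 with dye-swap pairs as a random block. Leaving out 1 array gave 0 to 1 members for SM37 and 0 to 1 for GA from 10 pg. In the contrasts with unamplified cDNA, 0 members differed for GA, SM37 and GA from 10 pg with values on all arrays. That was 1 for GA (Pdgfrb) and 1 for GA from 10 pg (Pdgfb) with values on 3 or more arrays of each set. It was 1 for SM37 (Pdgfra) with arrays scaled or centred, and 1 for GA from 10 pg (Pdgfa) with a dye term. Leaving out 1 array gave 0 to 1 members for each of these 3, and 1 to 2 for GA from 10 pg against GA. The other counts of members, for SMART and IVTIII among them, stayed at 0 in the alternatives run.

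Alternatives chosen after seeing the data were dye-swap pairs as a random block in the contrasts and turning the sign of GA from 10 pg. With the block and values on 3 or more arrays of each set, 1 member (Pdgfb) differed for GA from 10 pg against unamplified cDNA and 0 for GA against unamplified cDNA. With the sign turned, Pdgfa was at 1.86 and Pdgfb at 3.11 with GA from 10 pg. The difference of Pdgfa was then 2.28 from unamplified cDNA and 2.22 from GA, and that of Pdgfb 2.83 from GA. The members that differed were 1 against unamplified cDNA (2 with 3 or more arrays of each set) and 2 against GA (2 with 3 or more).

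A change of sign under leaving out 1 array was seen for 4 values that were not called: Pdgfb with IVTIII (−0.0098 to 0.15), Pdgfrb with SMART (−0.028 to 0.054), and the difference from unamplified cDNA of Pdgfa with GA (−0.0069 to 0.13) and of Pdgfra with SMART (−0.010 to 0.087).

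The hybridization numbers do not pair the arrays, since same-numbered arrays deviated together at a correlation of −0.23 to 0.25. With the number as a block, the members that differed stayed at 1 for GA from 10 pg against GA (Pdgfb, −3.39) and at 0 elsewhere.

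Over all genes, the calls were 449 for GA, against 247 with a dye term and 292 with the random block, and 241 for GA from 10 pg, against 149 with a dye term, 114 with the random block and 158 (59 higher, 99 lower) with arrays scaled; unscaled, 121 were higher and 120 lower. A prior share of 0.05 gave 1392 calls for IVTIII, 912 for GA, 536 for SMART, 1455 for SM37, 232 for SMART from 10 pg, 527 for GA from 10 pg and 2963 for unamplified cDNA, against 873, 449, 262, 752, 104, 241 and 1640 with 0.01. Adjusted p under 0.05 gave 2221, 1525, 523, 2483, 386, 756 and 4973 in that order. Leaving out 1 array gave 557 to 758, 212 to 347, 85 to 386, 473 to 598, 69 to 97, 81 to 231 and 790 to 1739. Of the contrasts, GA from 10 pg had 1437 differing genes against unamplified cDNA (947 to 3094 without 1 array, 2930 with 3 or more arrays of each set) and 860 against GA (556 to 1499, and 1608), while GA had 1123 (532 to 1246) and SMART 1193 (663 to 1494) against unamplified cDNA. SMART from 10 pg had 387 against unamplified cDNA (590 with 3 or more arrays of each set) and 1 against SMART (0 to 16 without 1 array, and 2). With dye-swap pairs as a random block the contrasts had 649 differing genes for GA and 927 for GA from 10 pg against unamplified cDNA, and 340 for GA from 10 pg against GA (474 with 3 or more arrays of each set). With 3 or more arrays of each set, the block gave 660 for SMART from 10 pg against unamplified cDNA and 2 against SMART, and turning the sign gave 2295 for GA from 10 pg against unamplified cDNA.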
